A study of Mus musculus with 2 samples.

Results

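The TRIM family of ubiquitin ligases was examined in the Ago2-bound RNA of TM4 Sertoli cells. Its members were the 62 genes, of 22609 in the count tables, whose symbol is Trim followed by a number and at most 1 letter, with Trim71 and Trim25 left out. Of these, 11 are interferon-inducible by textbook knowledge and 51 form the rest of the family. TM4 is an established mouse Sertoli cell line, grown in DMEM. The groups were 1 library from cells transfected with a miR-471-5p mimic and 1 from cells transfected with a scramble control, both taken 48 h after transfection by RNA immunoprecipitation with an Ago2 antibody. The study made this comparison to find mRNAs whose association with Ago2 rises with miR-471-5p. With 1 library per group no difference below has a replicate check, no test between conditions was possible, and every interval is an exact 95% Clopper-Pearson interval that covers counting error only.

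Most TRIM proteins carry a RING finger, B-boxes and a coiled coil at their amino end. The RING transfers ubiquitin to a substrate chosen mostly by the carboxy-terminal domain. Some members, such as Trim44, lack the RING. Many members act in innate immunity: some bind viral proteins directly and others tune the signals of RNA and DNA sensors. A subset is itself induced by interferon through a promoter element, the ISRE. Other members repress transcription, shape the cytoskeleton or sort membrane proteins, and are made in most cells.

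The libraries held 18628310 reads on genes for mimic and 18717225 for scramble, and library sizes were scaled by TMM. A gene was tested, that is, given a log2 ratio of mimic to scramble, when it had at least 20 reads over both libraries, which 12186 genes had. Of the Sertoli markers, Sox9, Gata4, Kitl, Inhbb and Clu were present, while Fshr had 0 reads in both libraries and Amh had 5 in each, so the label holds only in part at the level of these RNAs. Of the 7 macrophage markers, Ptprc, Emr1 and Itgam were at 0 in both libraries, Cd14 had 81 reads with mimic and 26 with scramble, Csf1r had 18 and 25, and together the 7 summed to 5.91 CPM (reads scaled to the library total on genes) with mimic and 3.31 with scramble, and their part in the results was not tested. Among peritubular markers, Acta2 had 73076 reads with mimic and 101778 with scramble, more than any Sertoli marker listed. Myh11, Des and Cnn1 had at most 17 in either library. Leydig markers summed to 4.51 CPM with mimic and 4.70 with scramble, and germ cell markers to 6.98 and 7.64. What these reads mean for the identity of the cells was not tested. The mRNA of Ago2 itself, listed as Eif2c2, had 658 reads with mimic and 3338 with scramble, and its part in the results below was not tested. No library of RNA before the pull-down was analysed here, so fewer transcripts, fewer cells carrying them and less Ago2 association cannot be told apart.

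Of the 62 members, 36 had enough reads for a log2 ratio, 13 had reads below the minimum and 13 had 0 reads in both libraries. Together the members held 39464 reads with mimic and 40088 with scramble, or 2118 and 2142 CPM. None of the 36 was at least 2-fold higher with mimic, against 3.96% of all genes tested, and 1, Trim56, was at least 2-fold lower, against 3.08%. The log2 ratio was above 0 in 18 members and below 0 in 18, with a median of 0.0026 beside -0.00063 over all genes tested. It lay within 0.5 of 0 for 28 of the 36 members (77.8%), against 72.9% of all genes tested. Beyond counting error, 12 members were higher (33.3%, against 31.5% of all genes) and 13 were lower (36.1%, against 32.5%), shares close to that background, while the intervals of the other 11 spanned 0. As ratios over the whole data varied with transcript length, described further on, each was also taken as the residual of a regression on the length and GC content of the coding region and 3′-UTR. As residuals, 20 of these 25 members stayed beyond counting error in the same direction, Trim30a, Trim33, Trim37, Trim45 and Trim47 did not, and Trim28 became lower. For these calls each counting interval was moved with its ratio, and the error of the fit is not included. No share over all genes tested was computed for residual calls, here or below, so they cannot be set against a background.

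**Figure D1:**
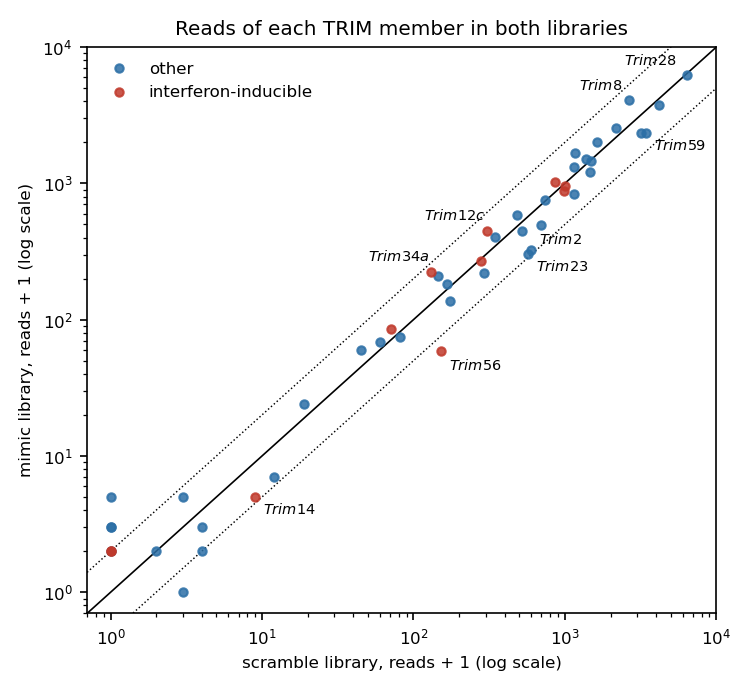
Reads of each TRIM member in the scramble library (x) and in the mimic library (y), both plus 1 and on log scales, for the 49 members with a read. The solid line marks equal reads and the dotted lines a 2-fold difference. Among members with enough reads for a log2 ratio, Trim56 (58 and 150 reads) is the one beyond a dotted line, and the points beyond the lines at the lower left have at most 4 reads in either library.

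Trim28, the corepressor that KRAB zinc finger proteins recruit to DNA, was the member with the most reads per length in the scramble library, at 105 CPM per kb of its longest annotated mRNA. Trim59, a membrane-anchored ligase, followed with 62.5, Trim35 with 46.2, Trim44 with 39.6, Trim8 with 39.5 and Trim47 with 39.5. The last 3 of these levels were indistinguishable at this depth. The lowest level among the 36 was that of Trim66, at 0.104. The 5 non-interferon members with the most reads, Trim28, Trim44, Trim8, Trim59 and Trim35, took 47.4% of all member reads with mimic and 49.4% with scramble, and the interferon-inducible members took 9.97% and 9.45%.

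The interferon-inducible members were Trim12a, Trim12c, Trim30a, Trim30b, Trim30d and Trim34a from the TRIM5-related cluster on chromosome 7, Trim21 elsewhere on that chromosome, and Trim14, Trim26, Trim38 and Trim56 elsewhere. Trim5, Trim30c and Trim34b were not analysed here. In RefSeq promoters of GRCm38.p6, each a window of 250 bases before and 50 after an annotated start, the ISRE letters, GAAA, any 2 bases and GAAA again, were searched on both strands. They occurred in 7 of the 10 interferon-inducible members with a promoter in that table (70%), in 1 of 37 other members (2.7%) and in 3.99% of the 27025 genes with a promoter. These 7 were all among the 8 tested interferon-inducible members and are printed to set the letters beside their ratios. The capitals mark the letters found, TTTC, 2 bases and TTTC where they read on the opposite strand.

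Trim34a (chr7:104244457-104244486, plus strand): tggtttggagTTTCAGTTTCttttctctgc
Trim12c (chr7:104353359-104353388, minus strand): agagttgtggTTTCTGTTTCatttccagct
Trim12a (chr7:104315466-104315495, minus strand): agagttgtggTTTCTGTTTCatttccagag
Trim30a (chr7:104465210-104465239, minus strand): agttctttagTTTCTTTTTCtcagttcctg
Trim30d (chr7:104507871-104507900, minus strand): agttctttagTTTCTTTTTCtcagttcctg
Trim21 (chr7:102565450-102565479, minus strand): cctctgagagGAAACTGAAAgtgaaatttg
Trim26 (chr17:36836976-36837005, plus strand): ccgcttccgaTTTCACTTTCcttttctcgg

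The windows printed for Trim30a and Trim30d are the same 30 bases. In Trim21 a second match overlaps the first, as it does in Trim26. The promoter of Trim56, the remaining tested interferon-inducible member, did not hold these letters. A match is a description of the sequence and not a shown binding site.

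Trim34a, a relative of the retroviral restriction factor TRIM5, had 224 reads with mimic and 129 with scramble, the highest log2 ratio of all 36 members, 0.80 (95% interval 0.48 to 1.12). Its reads were 1.74-fold higher, and it lay at percentile 93.3 of all genes tested. Trim12c, which also belongs to the TRIM5 relatives, had 448 and 303 reads and a log2 ratio of 0.56 (0.35 to 0.78). Both were higher with mimic beyond counting error. The short paralog Trim12a had only 85 and 70 reads, and its log2 ratio of 0.28 has an interval from -0.19 to 0.76 that spans 0.

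Trim30a, which restrains Toll-like receptor signalling to NF-kB, had 877 reads with mimic and 992 with scramble, a log2 ratio of -0.18 (-0.31 to -0.05) and a residual of -0.02 that was within counting error. Its neighbour Trim30d had 950 and 1006 reads and a log2 ratio of -0.08 (-0.21 to 0.05). With Trim26 these were the most-read interferon-inducible members, and neither Trim30a nor Trim30d was higher with mimic. Trim21, the cytosolic antibody receptor, had 266 and 278 reads and a log2 ratio of -0.06 (-0.31 to 0.18), so no difference was detectable at this depth. Trim26, a ligase that acts on interferon-β signalling, had 1020 and 853 reads and a log2 ratio of 0.26 (0.12 to 0.39). Within the chromosome 7 cluster the ratios thus ran from -0.18 in Trim30a to 0.80 in Trim34a, and the intervals of these 2 genes do not overlap.

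Trim56, which ubiquitinates the DNA sensor adaptor STING, went the other way. It had 58 reads with mimic and 150 with scramble, 2.59-fold lower, at a log2 ratio of -1.37 (-1.83 to -0.93) and percentile 1.35 of all genes tested. It was the lowest of the 36 members and the least read per length of the tested interferon-inducible ones, at 0.864 CPM per kb with scramble. The 3 interferon-inducible members below the minimum were Trim14, an adaptor of mitochondrial antiviral signalling, with 4 reads with mimic and 8 with scramble, Trim30b with 1 and 0, and Trim38 with 1 and 0. No ratio is given for them.

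Over the 8 tested interferon-inducible members the median log2 ratio was 0.097, with 4 members above 0 and 4 below, and -0.064 with no minimum or with a minimum of 200 counts. Beyond counting error 3 were higher (Trim34a, Trim12c and Trim26, 37.5%, against 31.5% of all genes tested), 2 were lower (Trim56 and Trim30a, 25%, against 32.5%) and 3 spanned 0. The 28 other members tested had a median of 0.0026, with 14 above 0 and 14 below, and 9 higher (32.1%) and 11 lower (39.3%) beyond counting error, near the same background. The SD over genes, which are not replicates, was 0.656 in the interferon-inducible members and 0.411 in the others. It was 0.396 with the narrow interferon list, which leaves out Trim56 and Trim26 of the tested members.

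The same libraries held a set of 20 interferon-stimulated genes outside the family, chosen with results of these data known. Of these, 19 were higher with mimic beyond counting error (against 31.5% of all genes tested) and 12 were at least 2-fold higher (against 3.96%). Their median log2 ratio was 1.36. As residuals the median was 1.06, beside 0.087 in the tested interferon-inducible TRIM members. The longest mRNA had a median of 2507 bases in the set and 3242 bases in those TRIM members. Ifit3, which encodes an RNA-binding antiviral protein, had 1435 reads with mimic and 449 with scramble. Irf7, the transcription factor that amplifies interferon production, had 696 and 222, and Psmb8, a subunit of the immunoproteasome, had 5476 and 665. The range in this set was -0.16 to 3.04, and none of the 8 interferon-inducible TRIM members reached its median. Of the 16 reference genes with a promoter in the table, 7 had the ISRE letters, and their ratios ran from 0.31 to 1.70 with 5 at least 2-fold higher. The 9 without the letters ran from -0.16 to 3.04, with 4 at least 2-fold higher. The 7 TRIM members with the letters ran from -0.18 to 0.80 with 0 at least 2-fold higher. Over all genes tested that had a promoter in the table, 31 of 317 with the letters were at least 2-fold higher (9.78%), against 283 of 8334 without (3.4%).

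**Figure D2:**
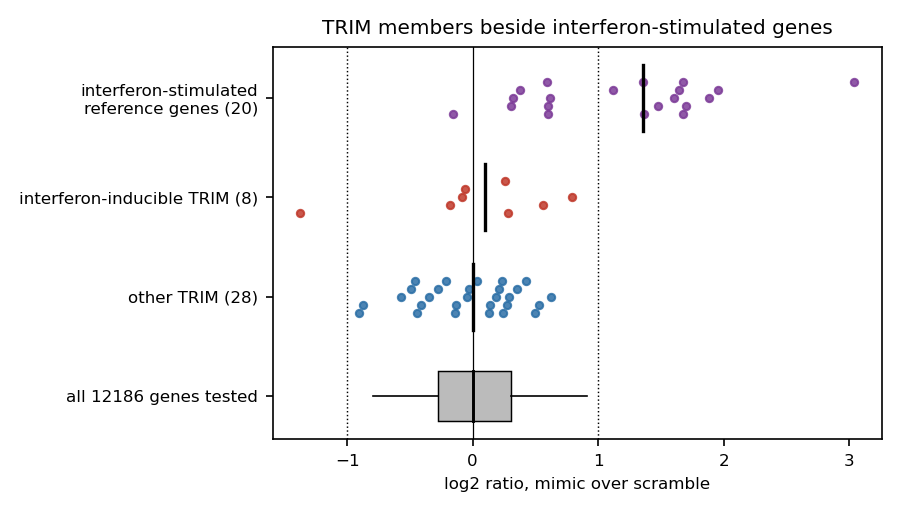
Log2 ratio of mimic to scramble (x) for 20 interferon-stimulated reference genes, 8 interferon-inducible TRIM members and 28 other TRIM members, with each gene as a point and the median as a black bar. The box spans the quartiles of all 12186 genes tested and its lines the 5th to 95th percentiles (-0.797 to 0.912). The reference genes have a median of 1.36 and both TRIM groups have medians near 0, at 0.097 and 0.0026.

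Members that regulate chromatin share a PHD finger and bromodomain at the carboxy end. Trim28 had 6184 reads with mimic and 6365 with scramble, a log2 ratio of -0.04 (-0.09 to 0.01), the narrowest interval in the family. Trim24, a coregulator of nuclear receptors, had 1503 and 1372 reads and a log2 ratio of 0.13 (0.02 to 0.24). Trim33, which limits Smad4 signalling, had 835 and 1147 reads and a log2 ratio of -0.46 (-0.59 to -0.33). The related Trim66 had only 23 and 18 reads and an interval from -0.60 to 1.33. The intervals of Trim28, Trim24 and Trim33 do not overlap each other, but as residuals Trim33 was at -0.03, above Trim28 at -0.16, with Trim24 at 0.27.

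Members with NHL repeats, which can bind RNA or protein, also differed among themselves. Trim2, a neuronal ligase that acts on neurofilament light chain, had 323 reads with mimic and 592 with scramble, a log2 ratio of -0.87 (-1.07 to -0.68). Trim3, a close relative, had 1658 and 1172 reads and was higher with mimic, with a log2 ratio of 0.50 (0.39 to 0.61). Trim32, mutated in a limb-girdle muscular dystrophy, had 1450 and 1477 reads and a log2 ratio of -0.03 (-0.13 to 0.08). Trim2 was the 1 member outside the interferon-inducible list whose promoter window held the ISRE letters, at chr3:84212791-84212820 on the minus strand.

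Trim2: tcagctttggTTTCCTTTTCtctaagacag

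The 5 members with other tail domains are a remainder and share no single tail domain. All 5 were lower with mimic beyond counting error, against 32.5% of all genes tested. Trim23, which carries an ARF GTPase domain, had 301 reads with mimic and 565 with scramble and a log2 ratio of -0.91 (-1.12 to -0.70), the lowest after Trim56. Trim59 had 2320 and 3436 reads and a log2 ratio of -0.57 (-0.64 to -0.49). Trim13, a ligase of the endoplasmic reticulum membrane, was at -0.35, Trim37, which acts at centrosomes and peroxisomes, at -0.28, and Trim45, with a filamin-type domain, at -0.21. The median of the 5 was -0.35. As residuals, 3 of the 5 (Trim13, Trim23 and Trim59) were lower beyond counting error, while Trim37, at 0.03, and Trim45, at -0.05, were not.

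The largest class carries a SPRY domain, and 18 of its 33 members were tested. Of these, 11 had log2 ratios above 0 and 7 below, with a median of 0.18, and 8 were higher (44.4%, against 31.5% of all genes tested) and 4 lower (22.2%, against 32.5%) beyond counting error. As residuals, 10 of these 12 kept that call, and Trim30a and Trim47 did not. Outside the interferon-inducible list the highest was Trim65, which ubiquitinates the RNA sensor MDA5, with 209 reads with mimic and 145 with scramble and a log2 ratio of 0.53 (0.21 to 0.84). The lowest were Trim16 at -0.49, Trim35 at -0.45 with 2337 and 3182 reads, and Trim68 at -0.41. Trim11, Trim27, Trim41 and Trim47 lay between 0.21 and 0.29, all beyond counting error, but the residual of Trim47 was 0.06 and within it. Trim39, at 0.03, Trim6, at 0.14, Trim7, at -0.13, and Trim62, at 0.42, had intervals that spanned 0.

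Among members without a recognised tail domain, Trim8, a regulator of NF-kB and STAT signalling, had 4081 reads with mimic and 2648 with scramble. Its log2 ratio of 0.62 (0.55 to 0.69) was the highest outside the interferon-inducible list and the most precisely determined of the ratios above 0.5. Trim44, which has a ubiquitin-protease-type zinc finger in place of the RING, had 3778 and 4163 reads and a log2 ratio of -0.14 (-0.20 to -0.08). Of the members that bind microtubules through a COS box, Trim46, which organises the axon initial segment, had 583 and 483 reads and a log2 ratio of 0.27 (0.09 to 0.45). Trim36 had 67 and 59 reads, and its interval spanned 0.

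**Figure D3:**
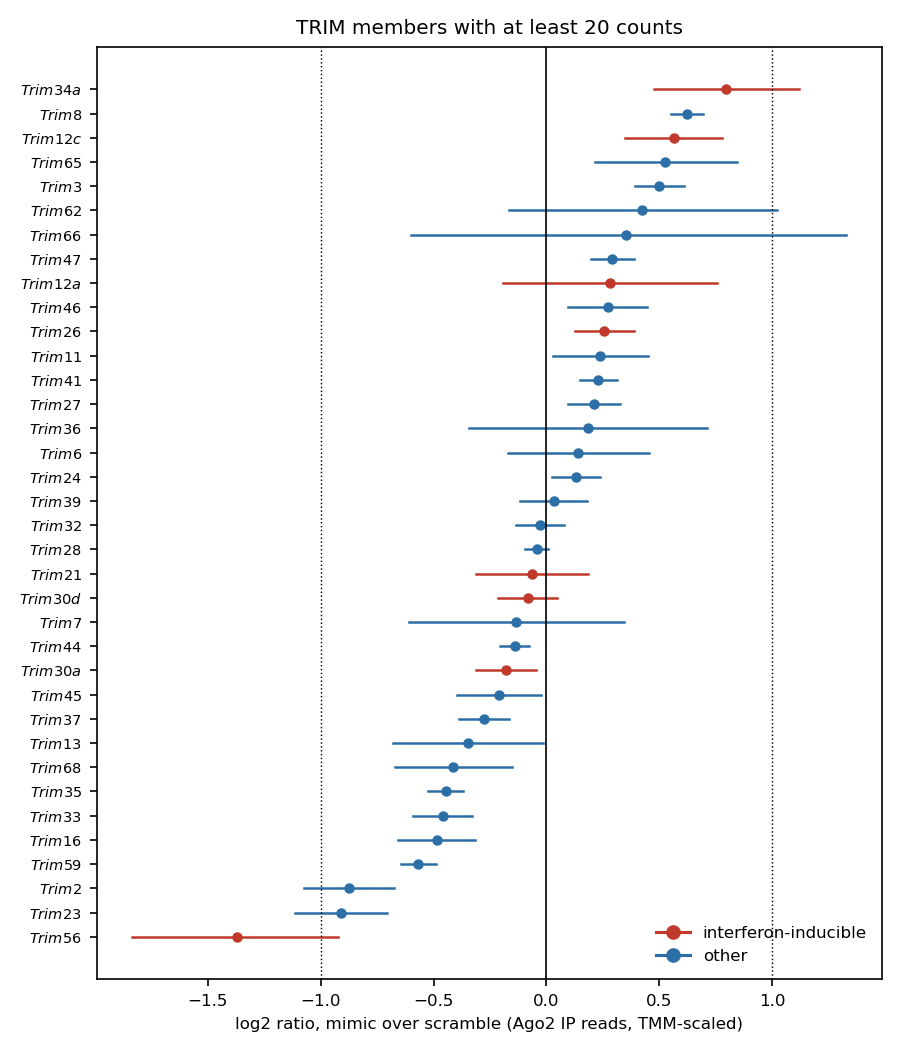
Log2 ratio of mimic to scramble (x, TMM-scaled Ago2 IP reads) of the 36 TRIM members with at least 20 counts, ordered by ratio, with exact 95% counting intervals as lines. Solid and dotted vertical lines mark equal and 2-fold different reads. Interferon-inducible members stand at both ends, with Trim34a at 0.80 and Trim56 at -1.37.

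The mimic carried the mature miR-471-5p, printed from RefSeq (GRCm38.p6, chrX:66792634-66792655, minus strand) with its seed, nucleotides 2 to 8, in capitals.

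miR-471-5p: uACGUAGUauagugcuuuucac

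The mRNA letters that pair with the whole seed, ACTACGT, occurred in the longest annotated 3′-UTR or coding region of 0 of the 62 members. Among all genes tested with these regions annotated, 1.55% had them in the 3′-UTR and 4.5% in the coding region. The shorter 6-base match CTACGT, pairing with nucleotides 2 to 7, was found in the 3′-UTR of 4 members, Trim15, Trim33, Trim56 and Trim63. It was found in the coding region of Trim44 and Trim66, or 5.56% of tested members, against 16.6% of all genes tested. Of the 36 tested members, 2 (5.56%) had this match in the 3′-UTR, against 6.75% of all genes tested. Trim56 and Trim33 were lower with mimic, Trim33 not as a residual (-0.03). Their 3′-UTRs are long, at 6812 and 4866 bases, against a median of 1852 over the tested members. A longer region has more places for a 6-base match. The study looked for mRNAs whose association with Ago2 rises with miR-471-5p, and both genes had fewer reads with mimic instead. Whether the match has a part in this was not tested. As for the coding-region carriers, Trim44 was at -0.14 and Trim66 at 0.35, where the interval spans 0. The 3′-UTR sites of the tested members are printed with the match in capitals (GRCm38, GENCODE M21 transcripts).

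Trim56 (chr5:137108933-137108938, minus strand, last exon): accagccaaggCTACGTgagaccttggcta
Trim33 (chr3:103358348-103358353, plus strand, last exon): ctgttgattttCTACGTggacatataccta

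Longer transcripts had lower ratios over the whole data. Across the 10715 genes tested with both regions annotated, the log2 ratio and the log2 length of the longest mRNA had Pearson's r of -0.393, and across the 36 members r was -0.355. Genes within these 2 libraries are not independent, and no p is given. Trim56 has the longest annotated mRNA of the tested members, 9279 bases with a 3′-UTR of 6812, and Trim2, at 7428 bases, also lay low. Trim66, with 9250 bases, had a ratio above 0. The residual was -1.10 for Trim56, -0.59 for Trim2, -0.69 for Trim23 and 0.81 for Trim34a, each in its earlier direction.

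**Figure D4:**
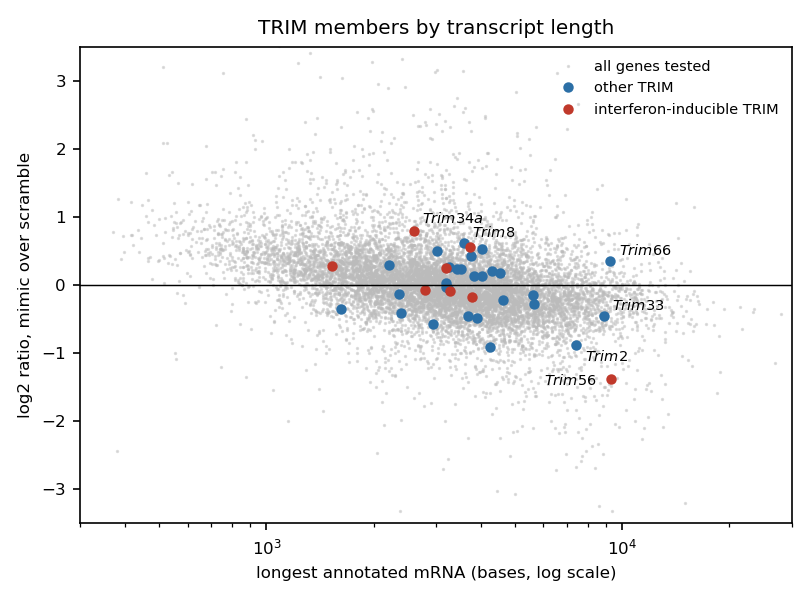
Log2 ratio of mimic to scramble (y) against the length of the longest annotated mRNA in bases (x, log scale) for the genes tested and, in colour, the 36 TRIM members. Members scatter across the grey cloud, with Trim56 (9279 bases) and Trim2 (7428 bases) low among the long transcripts and Trim34a high. The axes leave out 15 genes.

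Paralogs limit how well reads can be told apart in the chromosome 7 cluster, since reads with several possible alignments went to a summary row and to no gene. The coding regions of Trim30a and Trim30d were 90.2% identical, and those of Trim12a and Trim12c 96.3% over the shorter Trim12a. Of the 50-base windows in the longest mRNA, 41.3% in Trim34a occurred also in another gene (Trim34b), 27.9% in Trim12c and 23.5% in Trim12a (mainly Trim5 and each other). In Trim30d the share was 8.29% and in Trim30a 6.07%. The read length is not given in the sources used here, so the window is only a guide, and the levels of Trim34a, Trim12a and Trim12c are uncertain to that degree. The 2 members of highest ratio in the interferon-inducible list, Trim34a and Trim12c, are among those with the largest shared part.

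The members below the minimum had little signal in either library. Trim17 had 6 reads with mimic and 11 with scramble, Trim15 had 4 and 2, Trim72, a membrane repair protein of muscle, had 4 and 0, and Trim42 had 2 and 3. Trim69 had 1 and 3, Trim67 had 1 and 1, Trim43c had 0 and 2, Trim40 and Trim52 had 2 and 0, and Trim63, a ligase of muscle atrophy, had 1 and 0. Counts of 0 allow up to 3 reads, or 0.161 CPM with mimic and 0.16 with scramble. The 13 members at 0 in both libraries were Trim9, Trim10, Trim29, Trim31, Trim43a, Trim43b, Trim50, Trim54, Trim55, Trim58, Trim60, Trim61 and Trim75.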

How the data were processed

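RNA bound by Ago2 was sequenced from 1 mimic and 1 scramble library. Per gene symbol, the authors deposited unnormalised read counts, with 5 summary rows per library. The submitters' processing notes name CASAVA 1.8.2, TopHat2 2.0.8b, HTSeq and build mm9; annotation, strandedness and read length are not given in the sources used here. The summary rows (47.3% of entries with mimic, 44.1% with scramble) were left out.

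Library sizes were scaled by TMM in edgeR 4.0.16 (R 4.3.3). A quasi-likelihood fit needs replicates, so no p-value was computed. Log2 ratios and intervals (scipy 1.17.1, Python 3.11.15) were run on simulated counts, and a count of 0 was set to 3. The simulation held counting error alone, so it cannot show how libraries of the same group would vary. GENCODE M21 transcripts (GRCm38) matched all 62 members by symbol, and 47 had a RefSeq promoter. Coordinates belong to these references and not to the counts. The regression covered 10715 genes (87.9% of those tested) and explained 18.2% of the variance. Alternatives were other scalings, count minimums, folds and interferon lists.

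The rule for named members took the tested interferon-inducible ones, those past 2-fold, the 5 other members with most reads, the PHD-bromodomain and NHL classes and seed-match carriers; others were named after their values were seen. Members and lists were chosen with earlier results of these data known, and motif and paralog searches were added after the tables were read.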

Additional observations from a re-analysis of the deposited data

Results flagged for a closer look

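Entries for alignments to more than one place, which no comparison above uses, made up 39.8% of the mimic library and 35.6% of the scramble library. How many of them come from the Trim12, Trim30 and Trim34 paralogs cannot be read from the counts.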

How the results depend on the processing

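No paired analysis was possible because each group has 1 library. Over the 6 group counts and medians, 40 of 46 alternative values stayed within a set range. For a count the range was 1.5 times. For a median it ran from the median of the members' lower counting bounds to the median of their upper ones. That is not an interval of the group median, and a change of sign can stay within it. With a 1.5-fold threshold, 1 interferon-inducible member (Trim34a) and 1 other member (Trim8) counted as higher and 2 other members (Trim2, Trim23) as lower. With the narrow interferon list, which leaves out Trim26, Trim38 and Trim56, 0 interferon-inducible members were at least 2-fold lower and 1 other member was (Trim56). With no filter on counts, 2 interferon-inducible members were at least 2-fold lower, since Trim14, with 4 and 8 reads, joined Trim56. Members with at most 3 reads in both libraries gave no ratio there. The median of the interferon-inducible members was -0.064 both with no filter and with at least 200 counts, so its sign is not settled. DESeq2 1.42.0 size factors and total counts moved no log2 ratio by more than 0.0075 and changed no sign. After the regression on length and GC content the sign changed for Trim30d, Trim32 and Trim37, of which Trim37 alone had been beyond counting error. Depth limits Trim12a, Trim36, Trim62, Trim66 and Trim7, whose intervals are wide. It also limits Trim56, whose interval of -1.83 to -0.93 includes ratios above -1. Counting error alone therefore leaves its 2-fold call unsettled, though not its direction.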

Other observations

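A few TRIM proteins go by other names. Pml, the organiser of nuclear bodies and itself induced by interferon, had 1780 reads with mimic and 1666 with scramble, a log2 ratio of 0.09 (95% counting interval -0.002 to 0.19). Mid1 and Mid2, a related pair that binds microtubules, were both lower with mimic, with 1661 and 2059 reads for Mid1 and 956 and 1202 for Mid2. Their log2 ratios were -0.31 (-0.40 to -0.22) and -0.33 (-0.46 to -0.21). Mefv, the inflammasome sensor pyrin, had 0 reads in both libraries.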
